A study of Mus musculus with 8 samples.

Results

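The 10 genes *Ucp1*, *Ucp2*, *Prdm16*, *Ppargc1a*, *Ppargc1b*, *Dio2*, *Cox7a1*, *Elovl3*, *Cited1* and *Tmem26* are markers or regulators of brown and beige fat. They were taken by symbol from RNA-seq tables of 41325 gene symbols and followed through 4 cell lines on day 0 and day 5 of adipogenic differentiation. All lines derive from C3H10T1/2 mouse mesenchymal stem cells, which form fat cells after hormonal induction. shControl cells, labelled wild type, were compared with cells carrying an shRNA against *Kdm4d* (shKDM4D), *Nfib* (shNFIB) or *Kmt2a*, the gene for MLL1 (shMLL1). Day 0 cells were 2 days past confluence and not yet induced. Day 5 cells had received 10 µg/ml insulin, 1 µM dexamethasone and 0.5 mM isobutylmethylxanthine until day 2, then insulin for 2 days, then serum medium without hormones. The knockdown lines are stable puromycin-resistant clones, and the labels do not give which clone was sequenced. Each of the 8 conditions has 1 library, so a knockdown and the clone that carries it cannot be told apart, and no test or p-value between conditions is given.

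Brown and beige fat cells burn fuel to make heat, chiefly through UCP1, which lets protons leak back across the inner mitochondrial membrane. PRDM16 is a transcription regulator that directs cells to this fate. PGC-1α, the product of *Ppargc1a*, is a coactivator that raises mitochondrial and thermogenic genes, classically after beta-adrenergic and cAMP signals. Beige cells arise within white fat, and *Tmem26* and *Cited1* have been used to mark them. White fat cells share the general adipocyte genes but store lipid and keep the thermogenic genes low.

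Levels are given as RPKM (reads per kilobase of exon, scaled to the mapped reads of the library) and as the whole reads behind them. The spacing of the values gave estimates of 15842221 to 38202580 mapped reads per library. Of the values worth 1 to 1000 reads, 96.2% to 96.5% per library were whole numbers of reads to within 0.02. All intervals are exact 95% intervals computed from the reads. They cover counting error only, not the spread between cultures. *Nfib* and *Kmt2a* were lower in their own knockdown lines at day 5, at 3.38 against 17.0 RPKM and at 1.63 against 5.27 RPKM in shControl cells. *Kdm4d* was covered by 1 read at day 0 and 4 reads at day 5 in shKDM4D cells, against 2 and 13 reads in shControl cells, so the shKDM4D label was checked only weakly.

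The promoters of *Ppargc1a* and *Ucp1* are shown because these genes form the contrast in the data, with 1805 reads over the 8 libraries for *Ppargc1a* and 1 read for *Ucp1*, the defining brown fat gene. Each line holds the 250 bases before the RefSeq start (GRCm38.p6), 5′ to 3′ on the strand of the gene. They lie at chr5:51567726-51567975 on the minus strand and at chr8:83290098-83290347 on the plus strand. Capitals mark TGACG, the core of the cAMP response element (CRE), or its reverse complement.
Ppargc1a: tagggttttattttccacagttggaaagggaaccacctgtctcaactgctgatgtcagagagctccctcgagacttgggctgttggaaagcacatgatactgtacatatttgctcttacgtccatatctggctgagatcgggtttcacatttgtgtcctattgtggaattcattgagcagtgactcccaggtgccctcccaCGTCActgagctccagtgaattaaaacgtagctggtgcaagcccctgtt
Ucp1: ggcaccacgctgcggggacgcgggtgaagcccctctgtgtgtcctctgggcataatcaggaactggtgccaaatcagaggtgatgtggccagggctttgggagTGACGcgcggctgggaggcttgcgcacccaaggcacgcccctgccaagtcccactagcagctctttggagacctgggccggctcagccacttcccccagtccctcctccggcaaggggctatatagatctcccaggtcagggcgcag

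The *Ppargc1a* match begins 49 bases and the *Ucp1* match 147 bases before the start, and the GC content of the 250 bases is 48.0% for *Ppargc1a* and 64.8% for *Ucp1*. Promoter windows of 250 bases before to 50 bases after the start were found for 8 members (10 windows). *Elovl3* and *Ppargc1b* were not matched. TGACG on either strand was in 5 member windows, those of *Ppargc1a*, *Ucp1*, *Ucp2*, *Dio2* and *Cited1*, and in 20.8% of all 32851 windows. The full CRE, TGACGTCA, which contains TGACG, was in the *Dio2* window only among the members, 95 bases before the start, and in 1.79% of all windows. AGGTCA, the core of many nuclear receptor sites, was in the *Ucp1* and *Cited1* windows and in 16.3% of all windows. TTGGCA, the core of the sites bound by NFI factors such as NFIB, was in the *Ucp1* window only among the members and in 14.1% of all windows. TTGCGCAA, a palindromic C/EBP site, was in no member window and in 0.183% of all windows. These matches describe letters in the windows and do not show binding.

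Most of the brown and beige genes were close to silent in every line and on both days. Of the 10 members, 7 never reached 1 RPKM: *Ucp1*, *Ucp2*, *Prdm16*, *Dio2*, *Elovl3*, *Cited1* and *Tmem26* together held 61 reads over all 8 libraries, and none of their values was over 0.144 RPKM. The 61 reads include 22 of *Cited1*, whose counts may be doubled. Among all 41325 gene symbols, 11513 were over 1 RPKM in at least 1 library. Most symbols were thus under this limit too, and the 7 members are not set apart by it. The other 3, *Ppargc1a*, *Ppargc1b* and *Cox7a1*, held 2395 reads. *Ppargc1a* was over 1 RPKM in the 4 day 5 libraries, *Ppargc1b* in shControl cells at day 5 and shMLL1 cells at day 0, and *Cox7a1* in shControl cells at day 5 only.

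**Figure D1:**
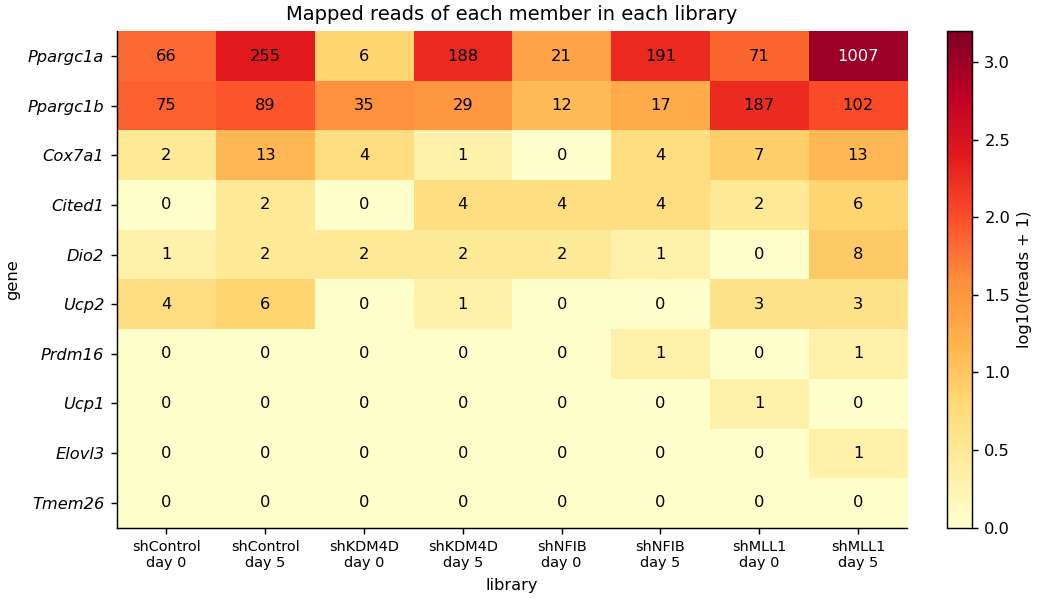
Mapped reads of the 10 members (rows) in the 8 libraries (columns), with the number in each cell and color on a log10(reads + 1) scale. *Ppargc1a* and *Ppargc1b* are the only rows with more than 13 reads in a library, and *Tmem26* has 0 reads in each. The counts of *Cited1* may be doubled.

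Among the uncoupling proteins, *Ucp1* (chromosome 8, from 83290352 to 83298452, GRCm38, protein coding) had 1 read, in shMLL1 cells at day 0, and 0 reads in the other 7 libraries. In a library with 0 reads, the 3 reads that a count of 0 still allows would correspond to between 0.0481 and 0.116 RPKM depending on depth. Over the 8 libraries together, 3 reads would be 0.00926 RPKM. No induction of *Ucp1* above the levels for single libraries was therefore detected in shControl cells or in any knockdown line. An induction below those levels could have been missed. *Ucp2* (chromosome 7, from 100493337 to 100502020), which encodes a more widely expressed relative in the inner mitochondrial membrane, had 4 reads at day 0 and 6 at day 5 in shControl cells. The same counts were 0 and 1 in the shKDM4D line, 0 and 0 in the shNFIB line and 3 and 3 in the shMLL1 line. The highest level of *Ucp2* was 0.0444 RPKM, and the log2 ratio of day 5 to day 0 in shControl cells, 1.05, had an interval from -1.03 to 3.32. The values of *Ucp2* thus overlapped between days. The *Ucp2* exons overlap *Dnajb13* on the opposite strand, and whether the counting used strand is not given in the sources used here.

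*Ucp3*, the muscle uncoupling protein, had 9 reads in shControl cells at day 5 (0.149 RPKM), 1 read in shKDM4D cells at day 5 and 0 reads elsewhere. Among the carriers closest to them, *Slc25a30* ranged from 1.62 to 8.98 RPKM and *Slc25a14* lay between 1.55 and 2.38 RPKM. Of the 17 genes of the family and of other heat-producing cycles, 8 were over 1 RPKM in at least 1 library. Of these 8, 2 were more than 2-fold higher at day 5 than at day 0 in shControl cells and none was lower, beside 13.0% higher and 8.56% lower of all 11513 genes that passed this filter. Of these 2, *Slc25a27* was over 1 RPKM in shControl cells at day 5 only (1.10 RPKM), so the filter fixed its direction.

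*Prdm16* (chromosome 4, from 154316125 to 154636873) had 1 read in shNFIB cells and 1 read in shMLL1 cells, both at day 5, and 0 reads in the other 6 libraries. Its exons overlap *B230104I21Rik* on the opposite strand. In the libraries with 0 reads, 3 reads would be between 0.00842 and 0.0172 RPKM. Other members of the PRDM family were expressed: *Mecom*, which like PRDM16 is a zinc finger protein with a PR domain, was at 6.05 to 12.4 RPKM, and *Prdm4* at 4.29 to 11.4 RPKM. Of the 14 relatives, 7 were over 1 RPKM in at least 1 library, and in shControl cells none of the 7 was more than 2-fold higher at day 5 and 1 was lower, beside 13.0% and 8.56% of all genes.

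*Ppargc1a* (chromosome 5, from 51454250 to 51567726, protein coding) was the member that moved most clearly, and it was higher at day 5 in all 4 lines. In shControl cells it was covered by 66 reads at day 0 (0.376 RPKM) and by 255 at day 5 (2.00 RPKM). In shKDM4D cells it was covered by 6 reads (0.0466 RPKM) and 188 reads (1.32 RPKM). The shNFIB cells had 21 reads (0.171 RPKM) and 191 reads (1.83 RPKM), and the shMLL1 cells 71 reads (0.282 RPKM) and 1007 reads (4.01 RPKM). The 4 day 0 values and the 4 day 5 values did not overlap. The log2 ratio of day 5 to day 0 was 2.41 in shControl cells (interval 2.02 to 2.83), 4.82 in the shKDM4D line (3.67 to 6.29), 3.42 in the shNFIB line (2.77 to 4.15) and 3.83 in the shMLL1 line (3.48 to 4.20). Every day 5 to day 0 ratio of *Ppargc1a* kept its direction under the other pseudocounts and scalings tried, between 1.13 and 5.29 over the 4 lines.

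In order of level, *Ppargc1a* was highest in shMLL1 cells at day 5, followed by shControl, shNFIB and shKDM4D cells at day 5 and then by shControl, shMLL1, shNFIB and shKDM4D cells at day 0. Neighbors in this order were not separated by the counts between shControl and shNFIB cells at day 5 (log2 ratio 0.13, interval -0.15 to 0.41) or between shControl and shMLL1 cells at day 0 (0.41, interval -0.09 to 0.92). The other neighbors were separated. The level was modest beside other genes. Of the 11513 genes over 1 RPKM in at least 1 library, 19.3% lay below *Ppargc1a* in shControl cells at day 5 and 35.0% in shMLL1 cells at day 5.

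The shKDM4D and shNFIB lines had less *Ppargc1a* than shControl cells at day 0 and came closer to them at day 5. At day 0 *Ppargc1a* was 8.07-fold lower in shKDM4D cells than in shControl cells (log2 ratio -3.01, interval -4.51 to -1.81) and 2.20-fold lower in shNFIB cells (-1.14, interval -1.92 to -0.41). The shNFIB ratio was under 2-fold with 0.1 added to each RPKM (-0.81), with quantile normalization (-0.998) and relative to *Gapdh* (-0.50). By day 5 the log2 ratio was -0.60 for shKDM4D (interval -0.88 to -0.32) and -0.13 for shNFIB (-0.41 to 0.15). In shMLL1 cells at day 5 it was 1.00 (interval 0.80 to 1.20), which lies at the 2-fold limit, with 4.01 against 2.00 RPKM. It fell under that limit in each other scale tried, between 0.64 and 1.00. The change from day 0 to day 5 exceeded that of shControl cells by 2.41 on the log2 scale for shKDM4D (interval 1.17 to 3.93), by 1.01 for shNFIB (0.22 to 1.84) and by 1.42 for shMLL1 (0.87 to 1.96). The 3 differences share the shControl libraries. The shKDM4D value rests on 6 reads at day 0, and it became 1.13 when 0.1 was added to each RPKM and 0.02 when 1 was added. The shNFIB value became 0.42 when levels were taken relative to *Gapdh*, which itself ranged from 159 to 326 RPKM.

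**Figure D2:**
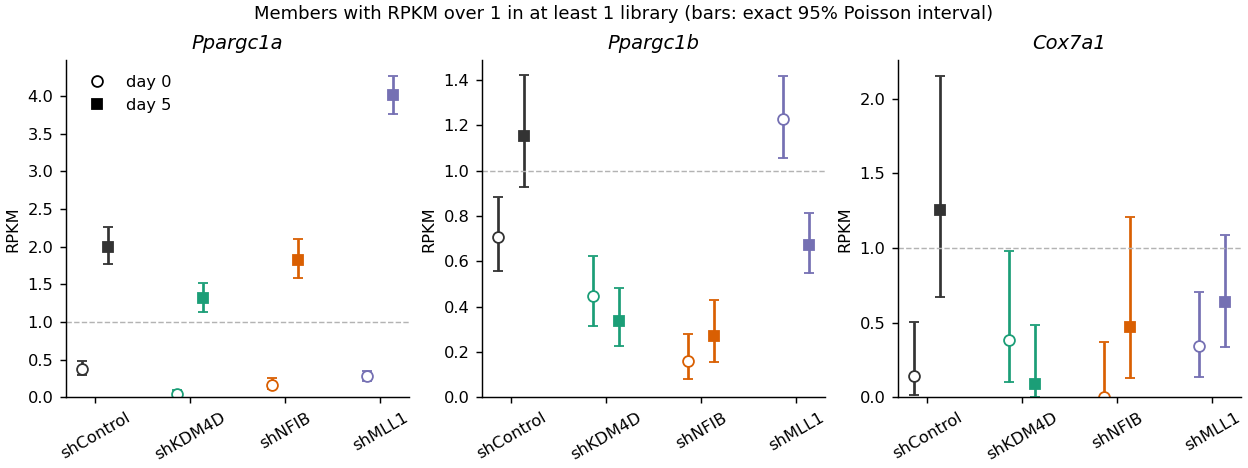
RPKM of *Ppargc1a*, *Ppargc1b* and *Cox7a1* in the 4 lines, with open circles for day 0, filled squares for day 5, bars for the exact 95% Poisson interval of each library and a dashed line at 1 RPKM. *Ppargc1a* is higher at day 5 in each line, *Ppargc1b* is lowest in shNFIB cells, and the intervals of *Cox7a1* are wide.

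*Ppargc1b* encodes PGC-1β, a close relative of PGC-1α that also drives mitochondrial genes. It lies on chromosome 18 (from 61298136 to 61400431, protein coding) and did not follow *Ppargc1a*. In shControl cells 75 reads fell on it at day 0 (0.706 RPKM) and 89 at day 5 (1.15 RPKM). The shKDM4D cells gave 35 reads (0.449 RPKM) and 29 reads (0.336 RPKM), and the shNFIB cells 12 reads (0.161 RPKM) and 17 reads (0.269 RPKM). The shMLL1 cells gave 187 reads at day 0 (1.23 RPKM) and 102 at day 5 (0.671 RPKM). The levels were thus ordered by line more than by day, with both shKDM4D and both shNFIB libraries below the other 4. The log2 ratio of day 5 to day 0 was 0.71 in shControl cells (interval 0.25 to 1.17) and -0.87 in shMLL1 cells (-1.23 to -0.52), and both intervals left out 0 on opposite sides. Their sizes depended on the scaling: with quantile normalization they were 0.24 and -1.63, and with median-of-ratios scaling the shMLL1 value was -1.04. For shKDM4D it was -0.42 (-1.18 to 0.33) and for shNFIB 0.74 (-0.41 to 1.94), and these 2 turned sign in 1 other scaling each.

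Against shControl cells of the same day, *Ppargc1b* was lower in shKDM4D cells at day 0 (log2 ratio -0.65, interval -1.27 to -0.06) and at day 5 (-1.78, interval -2.44 to -1.16). In shNFIB cells it was lower on both days, by 4.38-fold at day 0 and 4.29-fold at day 5. In shMLL1 cells it was 1.74-fold higher at day 0 (interval 1.32 to 2.30) and 1.72-fold lower at day 5 (log2 ratio -0.78, interval -1.21 to -0.36). In the order of the 8 levels, the first 2 (shMLL1 cells at day 0 and shControl cells at day 5) were not separated by the counts, nor were the next 2 (shControl cells at day 0 and shMLL1 cells at day 5) or any neighbors among the 4 shKDM4D and shNFIB levels.

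*Cox7a1* (chromosome 7, from 30184144 to 30186078, protein coding) encodes the heart and muscle form of a cytochrome c oxidase subunit and is also high in brown fat. In shControl cells it had 2 reads at day 0 and 13 at day 5 (0.140 and 1.26 RPKM). The shKDM4D cells gave 4 and 1 reads (0.383 and 0.0865 RPKM), the shNFIB cells 0 and 4 reads (0 and 0.472 RPKM), and the shMLL1 cells 7 and 13 reads (0.342 and 0.637 RPKM). The levels of the 2 days overlapped between lines. The log2 ratio of day 5 to day 0 was 3.16 in shControl cells (interval 1.02 to 6.35), -2.15 in the shKDM4D line (-7.77 to 1.19) and 0.90 in the shMLL1 line (-0.54 to 2.46). In shNFIB cells the level at day 5 was 1.57-fold that of 3 reads at day 0, and the interval of its ratio to the 0 reads there began at 0.778-fold. At day 5 the interval of the ratio to shControl cells left out 0 for shKDM4D cells only (-3.86, interval -9.27 to -1.13, from 1 against 13 reads). No neighbors in the order of the 8 *Cox7a1* levels were separated by the counts. The forms of the subunit used in most tissues were far higher: *Cox7a2* lay between 27.8 and 34.6 RPKM and *Cox8a*, the common form of another subunit, between 323 and 498 RPKM.

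**Figure D3:**
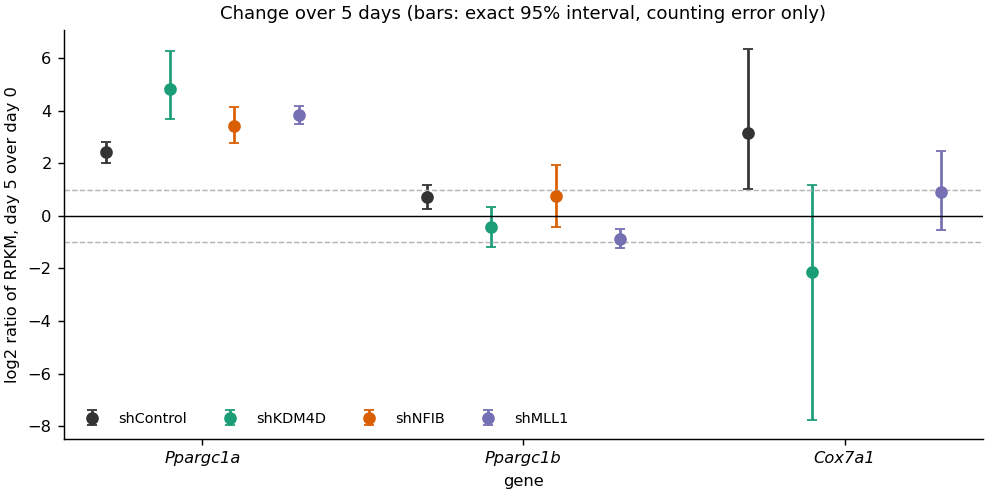
Log2 ratio of RPKM at day 5 over day 0 for *Ppargc1a*, *Ppargc1b* and *Cox7a1* in each line, with exact 95% intervals from the reads, a solid line at 0 and dashed lines at 2-fold. *Ppargc1a* is above the upper dashed line in the 4 lines, from 2.41 to 4.82, *Ppargc1b* lies within the dashed lines, and *Cox7a1* in shNFIB cells is not drawn because it had 0 reads at day 0.

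The remaining enzymes and markers were at or near the limit of detection. *Dio2* (chromosome 12, from 90724552 to 90738438) encodes the deiodinase that makes active thyroid hormone inside brown fat cells. Its reads at day 0 and day 5 were 1 and 2 in shControl, 2 and 2 in shKDM4D, 2 and 1 in shNFIB, and 0 and 8 in shMLL1 cells. The level from the 8 reads (0.0361 RPKM) was 2.67-fold that of 3 reads in the day 0 library of the same line. The interval of its ratio to the 0 reads there began at 1.71-fold. Against the day 5 shControl library the log2 ratio was 1.02 with an interval from -1.31 to 4.29. *Dio2* shares exon sequence with *Gm26512* on the opposite strand. Its relatives *Dio1* and *Dio3* had 1 read each over all libraries. The nuclear receptor for thyroid hormone, *Thra*, was by contrast high and was higher at day 5 in the 4 lines, for example from 30.6 to 108 RPKM in shControl cells and from 20.2 to 79.9 RPKM in shMLL1 cells.

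*Elovl3* (chromosome 19, from 46131897 to 46135694) encodes a fatty acid elongase induced by cold in brown fat. It was above 0 only in shMLL1 cells at day 5, at 0.0176 RPKM, which by the annotated exon length is 1.32 reads, so the gene model behind the value differs from the annotation used here and the count of 1 read is approximate. The other elongases were expressed, with *Elovl5* at 18.4 to 33.8 RPKM and *Elovl6* at 4.45 to 15.3 RPKM. *Elovl6*, which lengthens saturated fatty acids made in the cell, went from 6.64 to 13.1 RPKM in shControl cells and from 5.48 to 15.3 RPKM in shKDM4D cells, against 4.45 to 4.78 RPKM in shNFIB cells and 10.5 to 6.21 RPKM in shMLL1 cells. At day 5 it was 2.73-fold lower in shNFIB cells and 2.10-fold lower in shMLL1 cells than in shControl cells.

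*Cited1* (chromosome X, from 102247381 to 102252181) encodes a transcriptional coregulator. Its reads at day 0 and day 5 were 0 and 2 in shControl, 0 and 4 in shKDM4D, 4 and 4 in shNFIB, and 2 and 6 in shMLL1 cells, with a highest level of 0.144 RPKM. All these counts are even, and recovery without gene lengths gave 11 reads in place of 22, so they may be doubled. The groups overlapped, and the 3 log2 ratios to shControl cells at day 5 had intervals that held 0. The relative *Cited2* was at 36.3 to 96.1 RPKM, and *Cited4* had 4 reads in all. *Tmem26* (chromosome 10, from 68723646 to 68782650), a membrane protein of the beige cell surface, had 0 reads in all 8 libraries, which over all libraries together allows a level of up to 0.00287 RPKM at 3 reads.

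With a gene counted where its RPKM was over 1 in at least 1 library and its ratio past 2-fold, *Ppargc1a* and *Cox7a1* were counted as higher at day 5 in shControl cells, where 13.0% of the 11513 genes were higher and 8.56% lower. In shKDM4D cells *Ppargc1a* was higher and *Cox7a1*, on 1 against 4 reads, lower (all genes, 12.8% higher and 8.44% lower). In shNFIB cells *Ppargc1a* and *Cox7a1*, the latter from 0 reads, were higher (12.6% and 4.96%). In shMLL1 cells *Ppargc1a* alone was higher (20.4% and 6.89%). At day 0, against shControl cells, *Ppargc1a* was lower and *Cox7a1*, on 4 against 2 reads, higher in shKDM4D cells (all genes, 1.98% higher and 4.26% lower), *Ppargc1a*, *Ppargc1b* and *Cox7a1*, the latter at 0 against 2 reads, were lower in shNFIB cells (2.95% and 6.05%), and *Cox7a1*, on 7 against 2 reads, was higher in shMLL1 cells (1.67% and 7.43%). At day 5, *Ppargc1b* and *Cox7a1* were lower both in shKDM4D cells (all genes, 1.88% higher and 4.57% lower) and in shNFIB cells (5.54% and 5.67%), and *Ppargc1a* was higher in shMLL1 cells (5.25% and 4.02%). Only 3 members could be counted, and *Cox7a1* could be counted only through its level in shControl cells at day 5, so these counts are a description of the 3 genes.

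General adipocyte genes were highest in shControl cells at day 5, and *Ucp1* was at 0 there. All 10 genes of the general adipocyte list were more than 2-fold higher at day 5 than at day 0 in shControl cells, beside 13.0% of all genes. At day 5 all 10 were more than 2-fold lower in each knockdown line, beside 4.57%, 5.67% and 4.02% of all genes in shKDM4D, shNFIB and shMLL1 cells. Among the 10, *Lpl* was over 1 RPKM in shControl cells at day 5 only, so the filter fixed its direction. The summed level at day 5 was 926 RPKM in shControl cells, 60.2 RPKM for shKDM4D, 23.3 RPKM for shNFIB and 27.5 RPKM for shMLL1. The levels of *Ppargc1a* did not follow this order, since the line with the highest *Ppargc1a* at day 5, shMLL1, had 0.570 RPKM of *Adipoq* against 258 RPKM in shControl cells. In whole cultures, fewer fat cells and less RNA of a gene per fat cell cannot be told apart. Of the 9 white fat genes, 2 were over 1 RPKM in a library. *Agt*, the precursor of angiotensin, was at 96.4 RPKM in shControl cells at day 5 and at 7.41, 0.868 and 20.9 RPKM in shKDM4D, shNFIB and shMLL1 cells. *Retn*, the hormone resistin of mouse white fat, had 378 reads in shControl cells at day 5 (12.4 RPKM) against 6, 0 and 2 reads in these lines. *Retn* was over 1 RPKM in that shControl library only, so the filter fixed its direction. *Lep* and *Slc7a10*, also white fat genes, were at 0 in all 8 libraries.

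**Figure D4:**
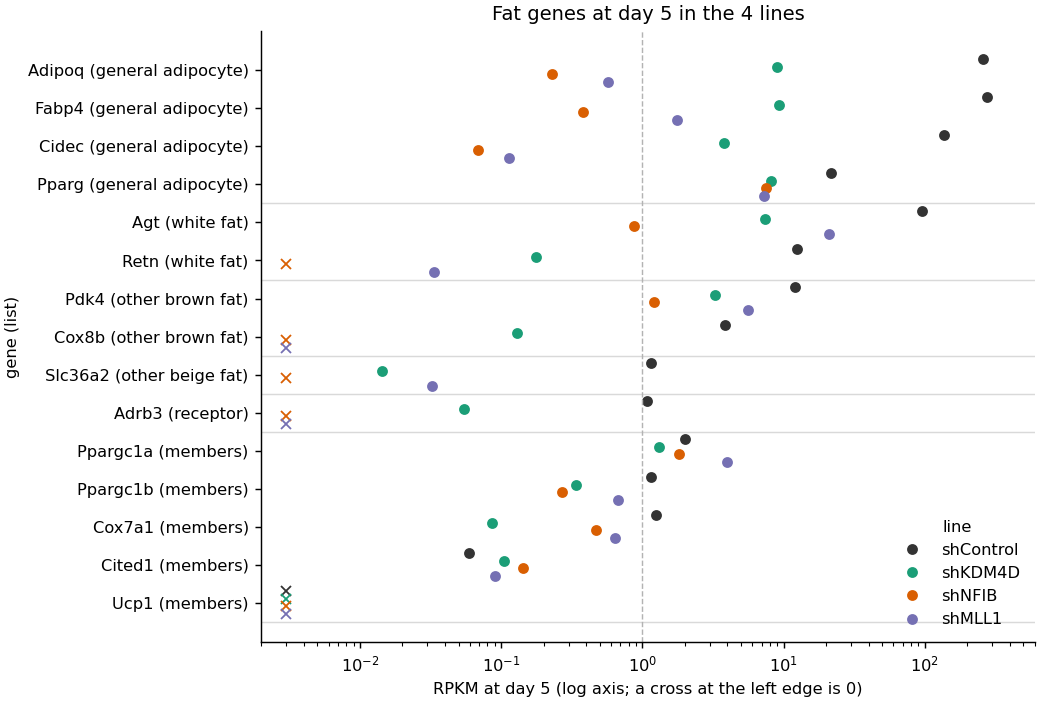
RPKM at day 5 on a log axis for 15 fat genes in the 4 lines (points, colored by line), with crosses at the left edge for values of 0 and a dashed line at 1 RPKM. The shControl points of the adipocyte and white fat genes lie to the right of the knockdown points, *Ppargc1a* is highest in shMLL1 cells at 4.01 RPKM, and *Ucp1* is at 0 in each line.

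Of 27 other brown fat and thermogenic genes, 9 were over 1 RPKM in at least 1 library, beside 11513 of all 41325 symbols. Of the 27, 12 had fewer than 10 reads in all. *Cidea*, a lipid droplet protein widely used to mark brown fat, had 0 reads in all 8 libraries. *Cox8b*, the muscle and brown fat form of a cytochrome c oxidase subunit, behaved differently, with 27 reads in shControl cells at day 5 (3.88 RPKM), 1 read in shKDM4D cells at day 5 and 0 reads in the other 6 libraries. With 0 set to 3 reads, *Cox8b* at day 5 was 7.38-fold lower in shNFIB and 17.8-fold lower in shMLL1 than in shControl cells. These 2 values leave out the counting error of the 27 reads. *Pdk4*, a kinase that turns cells from glucose to fat as fuel, went from 2.31 to 12.0 RPKM in shControl cells and was at 3.27, 1.20 and 5.60 RPKM at day 5 in shKDM4D, shNFIB and shMLL1 cells. Both genes were counted as lower in the 3 knockdown lines, but *Cox8b* was over 1 RPKM in shControl cells at day 5 only, so the filter fixed its direction. *Zfp516* and *Esrra*, regulators of thermogenic and mitochondrial genes, were expressed in all libraries, at 3.96 to 8.19 and 2.96 to 5.47 RPKM. The median log2 ratio of the 9 genes at day 5 was -0.23, -0.39 and 0.08 in shKDM4D, shNFIB and shMLL1 cells, beside 0.01, 0.09 and 0.07 for all 11513 genes on the log2(RPKM + 0.1) scale.

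Of the 12 other beige fat genes, 6 were over 1 RPKM in a library. From day 0 to day 5, 3 of the 6 were more than 2-fold higher in the shControl line, 2 in shKDM4D, 3 in shNFIB and 5 in shMLL1, and none of the 6 was lower, beside 13.0%, 12.8%, 12.6% and 20.4% of all genes higher. The filter fixed the direction of *Slc36a2* in shControl and of *Klhl13* in shNFIB cells, each over 1 RPKM in that day 5 library only. *Klhl13* also counted on 0 and 2 reads in shControl and 0 and 1 in shMLL1 cells. *Slc36a2* also counted on 0 and 1 reads in shKDM4D and 0 and 4 in shMLL1 cells. *Slc36a2*, an amino acid transporter, resembled *Cox8b*, with 73 reads in shControl cells at day 5 (1.16 RPKM), 1 and 4 reads in shKDM4D and shMLL1 cells at day 5 and 0 reads elsewhere. *Tbx1*, a transcription factor, was instead set by line: it lay between 2.78 and 5.05 RPKM in the shControl, shKDM4D and shNFIB libraries and at 0.127 and 0.276 RPKM in shMLL1 cells. *Sp100*, a nuclear body protein, was at 12.9 RPKM in shMLL1 cells at day 5 and at most 1.18 RPKM in any other library. *Ear2*, which has near-identical relatives so that its reads are uncertain, was higher at day 5 in the 4 lines and highest in shMLL1 cells, at 20.8 RPKM. Against shControl cells at day 5 the directions were mixed: 2 of the 6 were lower in shKDM4D cells (4.57% of all genes lower), 1 was higher and 1 lower in shNFIB cells (5.54% and 5.67%), and 2 were higher and 3 lower in shMLL1 cells (5.25% and 4.02%). *Slc36a2*, lower in each, was over 1 RPKM in shControl cells at day 5 only, so the filter fixed its direction. The gene higher in shNFIB cells was *Klhl13*, over 1 RPKM in that day 5 library only, so the filter fixed its direction as well. In shKDM4D and shMLL1 cells *Klhl13* was among the lower genes, on 1 read each against 2 reads in shControl cells.

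Of the 17 genes of the beta-adrenergic and cAMP pathway, 14 were over 1 RPKM in a library. *Adrb3*, the beta-adrenergic receptor of fat cells, had 70 reads in shControl cells at day 5 (1.07 RPKM), 4 reads in shKDM4D cells at day 5 and 0 reads in the other 6 libraries. *Adrb3* passed 1 RPKM in that shControl library only, so the filter fixed its direction. *Gnas*, the G protein subunit that couples this receptor to cAMP, lay between 90.2 and 120 RPKM. *Pde3b*, which breaks down cAMP after insulin, was at 1.94 RPKM in shNFIB cells at day 5 against 10.3, 12.7 and 14.3 RPKM in shControl, shKDM4D and shMLL1 cells. Of the 15 PRDM16 and PGC-1 partners over 1 RPKM in a library (17 in the list), none was more than 2-fold higher at day 5 than at day 0 in any line and 1 was lower in shControl and 1 in shMLL1 cells, beside 12.6% to 20.4% of all genes higher and 4.96% to 8.56% lower. *Cebpb*, which pairs with PRDM16, lay between 32.0 and 65.9 RPKM. All 11 corepressors and repressors of the brown program were expressed, among them *Twist1*, a repressor that binds PGC-1α, at 26.8 to 38.5 RPKM, and *Ncor1* at 16.7 to 20.5 RPKM. In the 3 knockdown lines at day 5, 10 or 11 of these 11 were within 2-fold of shControl cells. Most of all genes were within 2-fold too, with 1.88% to 5.54% higher and 4.02% to 5.67% lower.

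The genes most like each member over 1 RPKM were listed over the 8 libraries. By Pearson correlation of log2(RPKM + 0.1), the genes most like *Ppargc1a* were *Gm13421* (r = 0.99), *Lpcat2* (r = 0.98) and *Zeb2os* (r = 0.98). *Nudt1* and *Por* were among the 3 most like *Ppargc1b* (r = 0.93 and 0.92), and *Ndufa10*, *Prmt9* and *Uqcr10* most like *Cox7a1* (r = 0.98, 0.95 and 0.93). Among the members, r was 0.17 between *Ppargc1a* and *Ppargc1b*, 0.51 between *Ppargc1a* and *Cox7a1* and 0.65 between *Ppargc1b* and *Cox7a1*. These values describe 8 libraries that share their lines and days, out of 11513 genes ranked. *Cox7a1* rests on 44 reads in all and at most 13 in a library, so its r values are limited by counting error.

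Markers of other cell types were checked in the same libraries. Of 9 skeletal muscle genes, a lineage that shares *Cox7a1*, *Cox8b* and *Ucp3* with brown fat, *Acta1* and *Des* were over 1 RPKM in a library. *Acta1* lay between 0.120 and 1.39 RPKM and *Des* between 0.128 and 1.35 RPKM. *Myod1* and *Myh1* were at 0 in all libraries. The summed level of the 9 genes was between 0.495 and 1.92 RPKM, highest in shControl cells at day 5. Of 6 leukocyte genes, *Cd3e* was at 0, and *Cd68* was the only gene over 1 RPKM, at 0.469 to 1.64 RPKM. Of 8 bone and cartilage genes, 3 were over 1 RPKM in a library: *Sox9* at 48.4 to 188 RPKM, *Runx2* at 2.65 to 8.15 RPKM and *Col2a1* at 0.264 to 27.5 RPKM. Among the mesenchymal stem cell markers *Pdgfra* was at 12.9 to 70.8 RPKM, *Cd44* at 15.7 to 40.2 RPKM and *Eng* at 6.47 to 17.2 RPKM. *Ly6a* lay between 81.5 and 927 RPKM and *Thy1* between 0.0171 and 25.0 RPKM. *Nt5e* had 14 reads over all 8 libraries. The part of these cells in the values of the members was not tested.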

How the data were processed

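The 8 tables hold 1 RPKM value per gene and library. Per the labels and the methods of the study, RNA of C3H10T1/2 cells was made into stranded libraries, sequenced, and mapped to GRCm38 with CLC Genomics Workbench, and the authors deposited RPKM without replicates. Reads were recovered here as RPKM × exon length (GENCODE M21, GRCm38, 40851 of 41325 symbols) × mapped reads. The mapped reads of each library are an estimate made here, from taking the most frequent low value of RPKM × length as 1 read, and the annotation release of the authors is not given in the sources used here. Ratios were taken on RPKM without a pseudocount. Their intervals are exact Clopper-Pearson 95% intervals conditional on the summed reads, and were checked on simulated data. Differences of changes have exact conditional odds-ratio intervals (scipy 1.17.1), which were not checked on simulated data. A count of 0 was bounded by 3 reads. A gene was counted past 2-fold where its RPKM was over 1 in at least 1 library. The members and lists were chosen with earlier results of these data known. Named genes are the 10 members, at most 6 genes of each list (those of highest RPKM and those past 2-fold in one direction in the 3 knockdown lines at day 5), for relatives of a member those of highest RPKM, the 3 genes most like each member over 1 RPKM, the targeted genes and *Gapdh*. *Dio1*, *Dio3*, *Cited4*, *Ucp3*, *Slc25a27*, *Lpl*, *Zfp423*, *Cpt1b*, *Nt5e* and genes at 0 in all libraries were named after their values were seen. Alternatives were 2 pseudocounts, 3 scalings, no filter, a filter of 2 RPKM and 0 set to 3 reads. Some genes that these rules name are not reported here. Promoters are from RefSeq (GRCm38.p6).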

Additional observations from a re-analysis of the deposited data

Results flagged for a closer look

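In 3 cases the log2 ratio of day 5 to day 0 of a member was above 0 in shControl cells and below 0 in a knockdown line. The change of *Ppargc1b* was lower than in shControl cells by a log2 difference of -1.58 in shMLL1 cells (exact 95% interval from the reads -2.17 to -0.99) and of -1.13 in shKDM4D cells (-2.03 to -0.23). The change of *Cox7a1* differed by -5.31 in shKDM4D cells (-11.03 to -0.96), from 4 reads at day 0 and 1 read at day 5. Of the 3 ratios below 0, that of *Ppargc1b* in shMLL1 cells (-0.87, interval -1.23 to -0.52) had an interval that left out 0, and those in shKDM4D cells of *Ppargc1b* (-0.42, interval -1.18 to 0.33, and 0.05 relative to *Gapdh*) and of *Cox7a1* (-2.15, interval -7.77 to 1.19) did not. With 1 library per condition none of these differences was tested beyond counting error.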

How the results depend on the processing

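No paired analysis was possible because each condition has 1 library and the groups compared share 1 replicate number, and leaving out a library removes the comparisons that use it. Counts of members past 2-fold were 2, 2, 2 and 1 from day 0 to day 5 in shControl, shKDM4D, shNFIB and shMLL1 cells, and in shKDM4D, shNFIB and shMLL1 cells against shControl cells 2, 3 and 1 at day 0 and 2, 2 and 1 at day 5. Adding 1 to each RPKM gave 1 from day 0 to day 5 in shControl, shKDM4D and shNFIB cells, 0 in the 3 comparisons at day 0, and 1, 0 and 0 at day 5. Adding 0.1 gave 0 for shMLL1 cells on both days. Without the filter on RPKM the counts were 5, 4 and 6 from day 0 to day 5 in shControl, shKDM4D and shMLL1 cells, 4, 6 and 4 at day 0, and 5 for shNFIB and shMLL1 cells at day 5, and those added members rest on few reads. A limit of 2 RPKM left *Ppargc1a* alone, with 1 in shControl, shKDM4D and shNFIB cells from day 0 to day 5, 1, 1 and 0 at day 0, and 0 and 0 for shKDM4D and shNFIB cells at day 5. From day 0 to day 5 in shMLL1 cells both median-of-ratios scaling and quantile normalization gave 2, and relative to *Gapdh* shMLL1 cells at day 5 gave 2. The member gained over time in shMLL1 cells was *Ppargc1b*. In shMLL1 cells against shControl cells at day 5, *Ppargc1a* was under 2-fold in the 3 scalings (log2 ratio 0.64 to 0.999). The member counted there in each scaling was *Cox7a1*, as lower (-1.34 to -1.04). Relative to *Gapdh* it was joined by *Ppargc1b*, also lower (-1.14). Against shControl cells at day 0, shNFIB gave 2 in place of 3 with 0.1 added, quantile normalization or *Gapdh*. Chosen after seeing the data, setting a value of 0 to that of 3 reads gave 1 from day 0 to day 5 in shNFIB cells. Of 8 differences of change between a knockdown line and shControl cells, 7 were over 1 in size on the log2 scale, and 1 was when 1 was added to each RPKM. Scaling moved the median gene by -0.16 to 0.08 (median of ratios), -0.22 to 0.10 (quantile) and -0.56 to 0.64 (*Gapdh*) on the log2 scale. Among all genes, from day 0 to day 5 the counts past 2-fold went from 1451 higher and 571 lower to 1076 and 839 (quantile) or 840 and 2014 (*Gapdh*) in shNFIB cells, and from 2345 and 793 to 1935 and 1116 (median of ratios) or 1526 and 1366 (quantile) in shMLL1 cells. The split also moved by over 10 percentage points in shMLL1 cells at day 0 with quantile normalization (249 higher and 619 lower) and, relative to *Gapdh*, in shKDM4D cells over time (2708 and 493) and at day 0 (116 and 967), in shNFIB cells at day 0 (2272 and 346) and in shMLL1 cells at day 5 (410 and 891). Of 28 ratios of *Ppargc1a*, *Ppargc1b* and *Cox7a1*, 25 kept their direction under the other pseudocounts and scalings tried. The 3 that turned, *Ppargc1b* over time in shKDM4D and shNFIB cells and *Cox7a1* over time in shMLL1 cells, were within 2-fold. The causes were not tested. Reads recovered without gene lengths were the same for 9 members, and for *Cited1*, whose counts are all even, came to 11 in place of 22. *Kdm4d*, *Cox7a1* and the 7 members under 1 RPKM are limited by their few reads.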

Other observations

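*Thy1*, a surface marker of mesenchymal cells, was at 25.0 RPKM at day 0 and 22.6 RPKM at day 5 in shControl cells and at 11.8 and 11.1 RPKM in shMLL1 cells. The shKDM4D libraries held 1 and 9 reads of it and the shNFIB libraries 1 and 3 reads. *Ly6a*, which encodes the stem cell antigen Sca-1, was at 927 RPKM in shMLL1 cells at day 5 and between 81.5 and 340.2 RPKM in the other 7 libraries. *Zfp423*, a regulator of fat cell commitment that restrains the beige program, went from 0.395 to 3.38 RPKM in shControl cells and from 0.803 to 5.23, 0.420 to 2.74 and 0.560 to 3.86 RPKM in shKDM4D, shNFIB and shMLL1 cells. *Cpt1b*, the muscle and brown fat form of the enzyme that admits fatty acids to mitochondria, had 23 and 0 reads at day 0 and day 5 in shControl, 0 and 32 in shKDM4D, 18 and 22 in shNFIB and 0 and 31 in shMLL1 cells, and it shares exon sequence with *Gm44502* on the same strand. These 4 genes were picked for this paragraph after their values were seen.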
